A study of Mus musculus with 18 samples.

Results

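The genes described here encode 8 secreted proteins of the wound matrix: fibronectin (Fn1), SPARC (Sparc), tenascin C (Tnc), periostin (Postn), osteopontin (Spp1) and thrombospondins 1, 2 and 4 (Thbs1, Thbs2 and Thbs4). They were chosen by symbol, and each matched 1 of the 38924 Ensembl genes in the table of counts, so that 8 of 8 were found. RNA was measured in fibroblasts of heart (HF), kidney (KF) and tail (TF), either after a stay beneath the capsule of a recipient kidney (HFs, KFs and TFs) or after staying in culture (HFc, KFc and TFc), with 3 libraries in each of 6 groups. The cells of all 6 groups came from 10-week-old male mice carrying the Rosa mT/mG reporter on a C57BL/6 background and had spent 10 days in culture. For the transplanted groups, cells on gelatin foam were placed in syngeneic C57BL/6J recipients aged 10 to 11 weeks, and 3 days later the CD45-negative, TdTomato-positive cells were sorted out. For the cultured groups, leftover cells of the same isolations were replated and kept for 3 more days, without a sort being stated. The mT/mG reporter labels every cell of the donor and not fibroblasts in particular, so the sort selected for donor over host cells and against leukocytes, and the identity of the donor cells rested on the isolation and the culture. The purity of the sorted cells was not tested, and markers of host cell types in them are given below.

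Matricellular proteins are secreted into the extracellular matrix, where they bind cells, growth factors and other matrix proteins without forming the load-bearing scaffold themselves. Most are scarce in resting adult tissue and are made in quantity at sites of injury, by fibroblasts, macrophages, platelets or epithelium depending on the protein. Fibronectin is counted here among them although it is an adhesive glycoprotein that is itself assembled into fibrils. Cells read these proteins through integrins, CD44, CD47, CD36 and syndecans, and several of them control the release or the activation of TGF-beta.

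Total counts lay between 17927838 and 32245168 per library, and a gene needed more than 3 counts to be taken as detected. That limit, 0.093 to 0.167 CPM (counts scaled to a common depth) of the total, allows for counting error and for nothing else, as no molecular identifiers are named. Levels below are CPM of the library size scaled by the TMM method, and are given in the order of replicates 1 to 3. Nothing states that the replicates came from separate animals, so the tests measure the spread between these libraries, which may in part be technical. Replicates in culture lay close together, with a biological coefficient of variation of 0.074 in HFc, 0.081 in KFc and 0.083 in TFc, against 0.253 in HFs, 0.466 in KFs and 0.166 in TFs. All tests share 1 estimate of the spread per gene. The library labelled KFs replicate 3 goes against its label, since the male donors should give Y-linked transcripts. It held 1492 CPM of Xist, the RNA of the inactive X chromosome, and 0.722 CPM of 4 Y-linked genes together, against 0.0535 to 0.404 CPM of Xist and 175 to 229.9 CPM of the Y-linked genes in the other 17 libraries. In the deposited counts this library is named Kidney-Fibros, whereas KFs replicates 1 and 2 are named K1-RNA and K2-RNA. Its sample title alone names it K3. Counts of calls that involve KFs are therefore given with and without KFs replicate 3, as are most of the single tests. The heart and tail labels were matched by their defining transcription factors: Tbx20 lay between 373 and 1223 CPM in the heart libraries and at 0.526 CPM or less in all others, and Hoxb13 between 30.4 and 68.1 CPM in the tail libraries and at 0.0729 CPM or less in all others. Pax8, a factor of kidney epithelium, did so in culture only, at 16.8 to 18.8 CPM in KFc and 0.0491 CPM or less in HFc and TFc. After transplantation it was at 6.27, 3.56 and 109 CPM in KFs, against 0.863 to 3.97 CPM in HFs and TFs, so that KFs replicate 2 overlapped the other organs. All 10 markers of fibroblasts (collagens, Dcn, Lum, Pdgfra, Pdgfrb, Thy1 and Vim) were above 3 counts in every library but for 1 marker in KFc. In sorted or cultured bulk samples, fewer cells of a type and less RNA per cell cannot be told apart.

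Postn lies on chromosome 3 (chr3:54361109-54391037, plus strand), Tnc on chromosome 4 (chr4:63959785-64047015, minus strand), Spp1 on chromosome 5 (chr5:104435118-104441050, plus strand) and Sparc on chromosome 11 (chr11:55394500-55423183, minus strand). Fn1 is on chromosome 1 (chr1:71585520-71653200, minus strand) and the thrombospondin genes are spread over chromosome 2 (Thbs1, chr2:118111876-118127133, plus strand), chromosome 17 (Thbs2, chr17:14665500-14694235, minus strand) and chromosome 13 (Thbs4, chr13:92751590-92794818, minus strand), all in GRCm38 by GENCODE release M21. Tnc and Fn1 overlap a gene on the opposite strand, 8030451A03Rik and Apol7d, which reached 22 and 56 counts at most in any library. These are too few to bear on counts of 11787 and more for Tnc or 193420 and more for Fn1.

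RefSeq start regions (GRCm38.p6) were found for 6 of the 8 genes, Postn, Tnc, Spp1, Sparc, Thbs2 and Thbs4. The start used for Sparc lies 3103 bases from the GENCODE start, within the gene. The other starts lie 0 to 27 bases from theirs. The 250 bases upstream of the start are shown, 5′ to 3′ on the strand of the gene, for the 4 genes that were higher after transplantation in more than 1 organ without being near 0 in culture, with any match of TATAAA on either strand in capitals. The regions are chr3:54360857-54361106 for Postn (plus strand), chr4:64047016-64047265 for Tnc (minus strand), chr5:104434861-104435110 for Spp1 (plus strand) and chr17:14694263-14694512 for Thbs2 (minus strand).
Postn: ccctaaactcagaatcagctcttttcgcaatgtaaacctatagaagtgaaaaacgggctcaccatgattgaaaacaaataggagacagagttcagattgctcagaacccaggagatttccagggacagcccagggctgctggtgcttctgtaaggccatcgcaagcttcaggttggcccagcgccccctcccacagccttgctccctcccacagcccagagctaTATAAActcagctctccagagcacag
Tnc: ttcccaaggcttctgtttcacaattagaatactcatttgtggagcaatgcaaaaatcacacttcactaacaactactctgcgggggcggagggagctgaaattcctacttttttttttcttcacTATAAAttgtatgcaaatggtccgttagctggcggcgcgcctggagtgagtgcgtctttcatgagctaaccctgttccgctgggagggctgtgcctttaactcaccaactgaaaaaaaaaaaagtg
Spp1: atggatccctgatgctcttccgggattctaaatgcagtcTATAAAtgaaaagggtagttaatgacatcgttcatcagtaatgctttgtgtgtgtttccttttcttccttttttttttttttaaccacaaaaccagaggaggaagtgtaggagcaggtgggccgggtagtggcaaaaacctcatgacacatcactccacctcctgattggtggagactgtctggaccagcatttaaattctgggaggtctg
Thbs2: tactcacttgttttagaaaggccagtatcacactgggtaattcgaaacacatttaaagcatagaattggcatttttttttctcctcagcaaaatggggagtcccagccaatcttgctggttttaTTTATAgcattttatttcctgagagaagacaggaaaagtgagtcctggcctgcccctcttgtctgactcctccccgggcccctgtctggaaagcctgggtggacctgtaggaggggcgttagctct
TATAAA was present in all 4 of these regions but not in those of Sparc and Thbs4, and so in 4 of the 6. It was present in 12.4% of the 32851 RefSeq start regions of the same length. Only in Postn did it lie close to the start, 26 bases upstream. It lay 126 bases upstream in Tnc and 211 in Spp1, and in Thbs2 it was on the opposite strand. The AP-1 motif TGANTCA, found in 6.75% of all regions, and the SMAD palindrome GTCTAGAC, found in 0.167%, were in none of the 6 regions. The TEAD motif GGAATG, found in 12.6% of all regions, was present in Thbs4 alone, and CCAAT, found in 33.8%, in Spp1 and Thbs2. Both strands were searched, and no matches of different motifs overlapped. A match of letters is a description of these windows and not of factor binding.

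After transplantation Postn was higher and Thbs1 lower in every organ, and Spp1, Tnc and Thbs2 were each higher in a pair of organs. Of the 8 genes, 5 passed the thresholds in heart cells (adjusted p under 0.05 and a log2 fold change beyond 1; edgeR's quasi-likelihood test, Benjamini-Hochberg over 16577 genes), where Postn, Spp1, Thbs2 and Thbs4 were higher and Thbs1 was lower, beside 27.7% of all genes tested (18.3% higher and 9.33% lower). In kidney cells 5 passed, with Postn, Tnc, Spp1 and Thbs4 higher and Thbs1 lower, beside 22.6% of all genes (14.7% higher and 7.99% lower). In tail cells 4 passed, with Postn, Tnc and Thbs2 higher and Thbs1 lower, beside 16.5% of all genes (11.0% higher and 5.53% lower). The counts were again 5, 5 and 4 without KFs replicate 3. All genes that passed then numbered 4912, 3921 and 3089, against 4585, 3754 and 2743 with all libraries. Over the 8 genes the log2 fold change had a median of 1.18 in heart, 1.12 in kidney and 0.31 in tail, whereas over all genes it was 0.05, 0.09 and 0.00 (1.23 over the 8 genes in kidney without KFs replicate 3). The libraries of both groups did not overlap for 7 of the 8 genes in heart, 5 in kidney and 6 in tail, beside 67.3%, 51.2% and 60.4% of all genes.

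**Figure D1:**
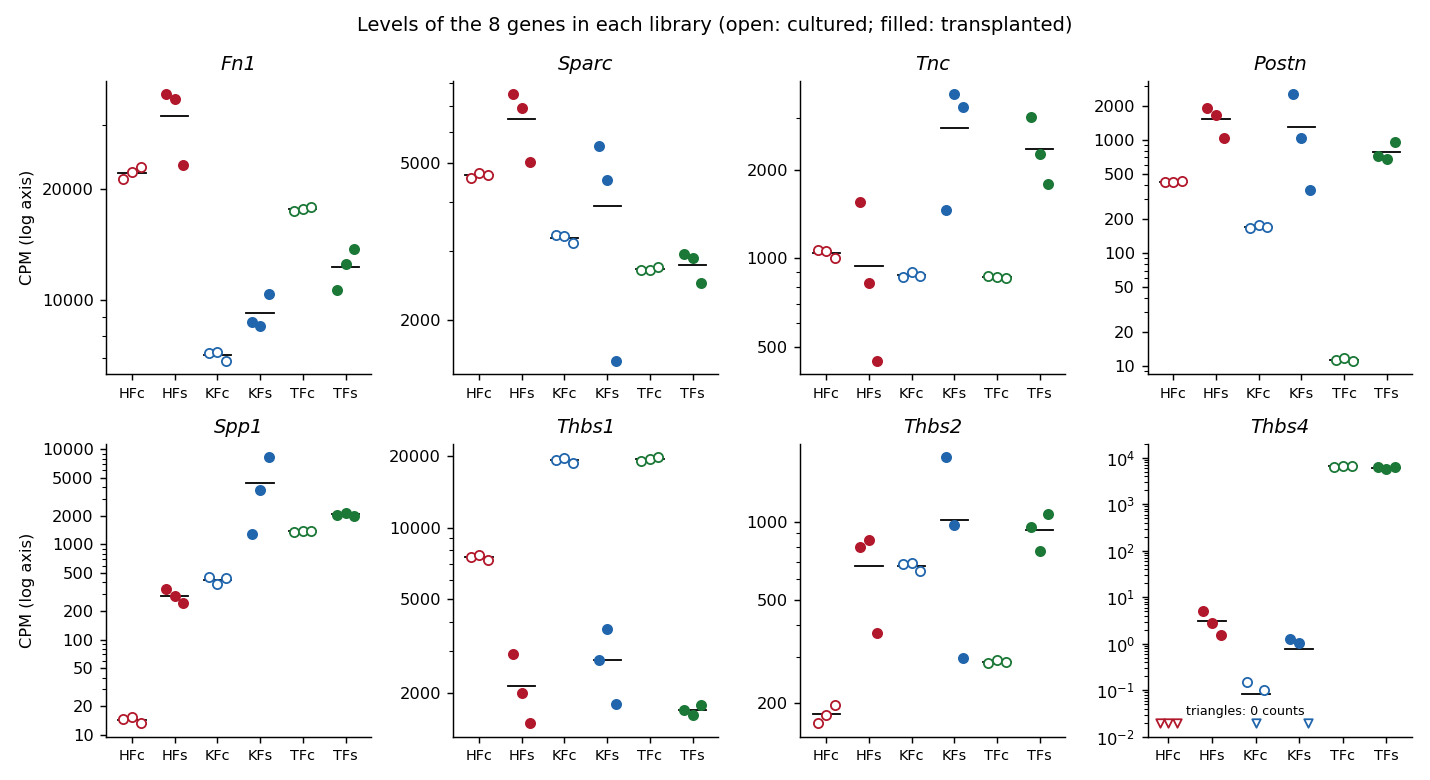
Level of each of the 8 genes in each library, in CPM on a log axis, by group (HFc, KFc, TFc cultured, open; HFs, KFs, TFs transplanted, filled), with the group mean as a bar. The cultured replicates of a group nearly coincide for every gene but Thbs4, whose 0 counts are drawn as triangles, whereas the 3 KFs libraries spread 6.98-fold for Postn and 6.48-fold for Spp1.

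**Figure D2:**
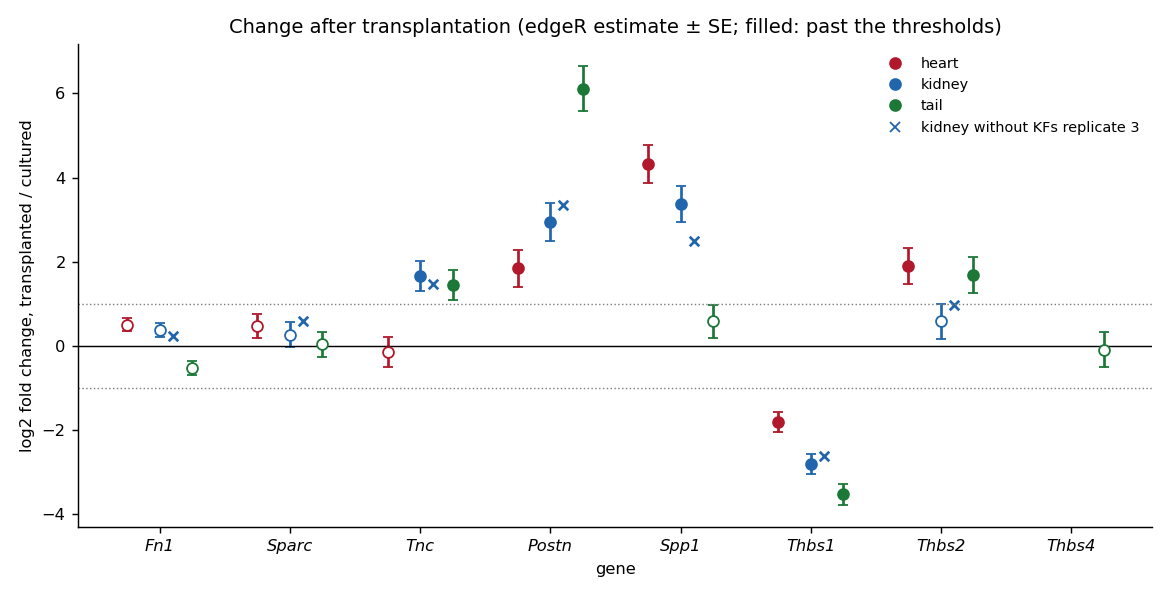
Log2 fold change of each gene in transplanted over cultured cells, as the edgeR estimate ± SE, for heart (red), kidney (blue) and tail (green); filled points passed the thresholds, dotted lines mark a log2 fold change of 1 either way, and crosses give kidney without KFs replicate 3. Postn is above 0 and Thbs1 below 0 in all 3 organs, and Thbs4 is drawn for tail only because its cultured heart and kidney libraries held 0 to 4 counts.

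Periostin, a ligand of alpha-v integrins made by activated fibroblasts, rose in all 3 organs, by most in tail cells. Cultured tail fibroblasts held Postn at 11.2, 11.7 and 11.1 CPM, cultured kidney fibroblasts at 165, 176 and 169 CPM, and cultured heart fibroblasts at 421, 426 and 436 CPM. The 3 organs were thus fully separated in culture, with tail lowest. After transplantation the values were 717, 685 and 960.4 CPM in TFs, 2530.2, 1047 and 363 CPM in KFs, and 1898, 1670.0 and 1048 CPM in HFs. Every transplanted library lay above every cultured library of its organ, and the lowest of them was the library labelled KFs replicate 3. The rise was 69.4-fold in tail (log2 6.12 ± 0.54, SE, edgeR adjusted p = 6.82e-07), 7.72-fold in kidney (2.95 ± 0.46, adjusted p = 8.68e-05) and 3.6-fold in heart (1.85 ± 0.44, adjusted p = 0.0022). The kidney rise was 10.2-fold (adjusted p = 9.75e-08) without KFs replicate 3. The rise in tail exceeded that in heart by 4.27 ± 0.64 on the log2 scale (adjusted p = 0.000252) and that in kidney by 3.17 ± 0.63 (adjusted p = 0.00453; kidney minus tail was -2.75 without KFs replicate 3, adjusted p = 0.000152). The heart response minus the kidney response was -1.10 ± 0.61 (adjusted p = 0.203) with all libraries, but -1.49 (adjusted p = 0.00501) without KFs replicate 3, so that this call turned on the library that goes against its label. Ordered by level, the groups ran HFs, KFs, TFs and HFc. With all libraries none of these differed from the next, although HFs was higher than HFc. KFc followed, lower than HFc (adjusted p = 0.0309), and then TFc, lower than KFc (adjusted p = 1.74e-05). Leaving out any 1 library of HFc or KFc ended the call between those cultured groups, with adjusted p between 0.0645 and 0.0861. Without KFs replicate 3 that call was kept (adjusted p = 0.000695).

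Tenascin C, a large hexameric glycoprotein that loosens the adhesion of cells to fibronectin, had nearly the same level in the 3 cultures. It was at 1068, 1060.1 and 1003 CPM in HFc, at 865, 897 and 866 CPM in KFc and at 868, 859 and 856 CPM in TFc. After transplantation it was at 1452, 3603 and 3264 CPM in KFs and at 3017, 2252 and 1782 CPM in TFs, above every cultured library. In HFs it was at 1552, 823 and 448 CPM, on both sides of the cultured values. Tnc rose 3.17-fold in kidney cells (log2 1.66 ± 0.36, adjusted p = 0.00144; 2.80-fold without KFs replicate 3) and 2.73-fold in tail cells (1.45 ± 0.36, adjusted p = 0.00525). In heart cells the log2 fold change was -0.15 ± 0.35 (adjusted p = 0.739). The response in heart was lower than that in tail by 1.60 ± 0.50 on the log2 scale (adjusted p = 0.0322) and lower than that in kidney by 1.81 ± 0.51 (adjusted p = 0.0153; a difference of -1.62 without KFs replicate 3, adjusted p = 0.0212). The first of these is narrow: 10 of the fits that left out 1 library gave an adjusted p between 0.0527 and 0.0873. Transplanted heart cells accordingly held less Tnc than transplanted tail cells (2.50-fold, adjusted p = 0.0146). That call ended without HFs replicate 2 or 3 or TFs replicate 1 (adjusted p between 0.0520 and 0.0642). With only the groups compared in the fit it ended too (adjusted p = 0.0646), as did the heart minus kidney call (adjusted p = 0.0522).

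Osteopontin, a phosphorylated ligand of integrins and CD44 made by activated fibroblasts, macrophages and injured tubule cells, showed the widest range of group means of the genes detected in every group, 305-fold from HFc to KFs, or 172-fold without KFs replicate 3. Cultured heart fibroblasts held 14.8, 15.5 and 13.2 CPM of Spp1, cultured kidney fibroblasts 451, 383 and 446 CPM, and cultured tail fibroblasts 1359.9, 1384 and 1389 CPM, the reverse of the order of Postn. In the transplanted groups the values were 343, 285 and 242 CPM in HFs, 1279.9, 3697 and 8288 CPM in KFs, and 2045, 2152 and 2004 CPM in TFs. No transplanted library overlapped the cultures of its own organ, and KFs replicate 3 was the highest of all 18 libraries. Spp1 rose 20.0-fold in heart cells (log2 4.32 ± 0.46, adjusted p = 1.49e-06) and 10.4-fold in kidney cells (3.37 ± 0.43, adjusted p = 1.41e-05), and the kidney rise was 5.65-fold without KFs replicate 3 (adjusted p = 1.45e-06). In tail cells the log2 fold change was 0.59 ± 0.40 (adjusted p = 0.259). The response in heart exceeded that in tail by 3.74 ± 0.58 on the log2 scale (adjusted p = 0.000371) and the response in kidney exceeded that in tail by 2.79 ± 0.57 (adjusted p = 0.00544; 1.93 without KFs replicate 3, adjusted p = 0.00133). Heart minus kidney was 0.95 on the log2 scale (adjusted p = 0.243) with all libraries and 1.84 (adjusted p = 0.00143) without KFs replicate 3. Even after its rise, Spp1 in HFs was 7.12-fold lower than in TFs (adjusted p = 0.000161) and 15.2-fold lower than in KFs (adjusted p = 1.35e-05; log2 -3.09 without KFs replicate 3). The 8 markers of injured kidney epithelium, all above 3 counts in every KFs library and 7 of 8 in KFc, summed to 66.5, 75.3 and 883 CPM in KFs replicates 1 to 3 and to 122 to 151 CPM in KFc. In the same libraries Havcr1, the injury marker of the proximal tubule, was at 26.3, 30.7 and 628 CPM and at 68.4 to 94.2 CPM in KFc. The 12 macrophage markers summed to between 39.4 and 173 CPM in KFs, with 10 of them above 3 counts in every library, and to between 504 and 548 CPM in KFc, with 12 of 12. The macrophage sum was lowest in KFs replicate 3, the library with most Spp1. The part of injured epithelium in the values of Spp1 was not tested.

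Thrombospondin 1, a trimeric glycoprotein that binds CD36 and CD47 and activates latent TGF-beta, was the gene of this group that fell. In culture it was among the most abundant transcripts, at 19189, 19401 and 19849 CPM in TFc, at 19240.2, 19700.4 and 18726 CPM in KFc and at 7520.3, 7649 and 7267 CPM in HFc. Transplanted cells held 1699, 1616 and 1781 CPM in TFs, 2755, 3713 and 1797 CPM in KFs and 2927, 2001 and 1487 CPM in HFs. Every transplanted library lay below every cultured library of any organ. Thbs1 fell 11.5-fold in tail cells (log2 -3.52 ± 0.25, adjusted p = 1e-07), 6.98-fold in kidney cells (-2.80 ± 0.25, adjusted p = 3.74e-07; -2.61 without KFs replicate 3) and 3.50-fold in heart cells (-1.81 ± 0.24, adjusted p = 1.19e-05). The fall in heart was smaller than that in tail by 1.71 ± 0.33 on the log2 scale (adjusted p = 0.00174) and smaller than that in kidney by 1.00 ± 0.33 (adjusted p = 0.0339; 0.83 without KFs replicate 3, adjusted p = 0.0191). The latter call ended in 7 of the fits that left out 1 library (each of the HFc and KFc libraries, and HFs replicate 1; adjusted p between 0.0589 and 0.0826). It also ended with only the groups compared in the fit (adjusted p = 0.0774). Kidney minus tail was 0.72 on the log2 scale (adjusted p = 0.178) with all libraries and 0.92 (adjusted p = 0.0157) without KFs replicate 3. In rank per length among 16301 genes, Thbs1 went from place 9 to 93 in tail cells, from 9 to 49 in kidney cells and from 16 to 72 in heart cells. Platelets are another store of this protein, and the platelet markers were low in both states: of 6 markers 3 or 4 were above 3 counts in every library of a group, Gp9 was at 0 in all cultured libraries, and the sums were 4.61 to 13.9 CPM after transplantation and 5.85 to 12.6 CPM in culture.

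Thrombospondin 2, the close relative of thrombospondin 1 that limits angiogenesis and clears matrix proteases, moved the other way. Its levels were 167, 179.8 and 196 CPM in HFc, 687, 694 and 647 CPM in KFc and 286, 292 and 288 CPM in TFc. After transplantation they were 801, 849 and 374 CPM in HFs, 1773, 968 and 299 CPM in KFs and 953, 773 and 1068 CPM in TFs. The heart and tail groups did not overlap with their cultures, whereas the KFs libraries lay on both sides of KFc, with replicate 3 below. Thbs2 rose 3.73-fold in heart cells (log2 1.90 ± 0.43, adjusted p = 0.00148) and 3.23-fold in tail cells (1.69 ± 0.43, adjusted p = 0.00559). In kidney cells the log2 fold change was 0.58 ± 0.42 (adjusted p = 0.26), and without KFs replicate 3 it was 0.98 (adjusted p = 0.00599), just inside the limit of 1. None of the 3 differences between organs in this response passed the test, with or without KFs replicate 3. For each Thbs1 read there were between 0.0145 and 0.0357 reads of Thbs2 in the cultured libraries and between 0.166 and 0.644 in the transplanted ones, with no overlap.

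Thrombospondin 4, a pentameric form found in tendon and other dense connective tissue, was a gene of tail fibroblasts in these data. It was at 6426, 6639.8 and 6552 CPM in TFc and at 6329.8, 5723 and 6432 CPM in TFs, and transplantation left no difference that passed the test (log2 -0.09 ± 0.42, adjusted p = 0.891). No count was present in the 3 HFc libraries, and the KFc libraries held 4, 0 and 3 counts. In culture Thbs4 was therefore at least 54761-fold higher in tail than in heart cells, computed against 3 counts per library. Transplanted heart cells held 83, 63 and 40 counts (4.99, 2.78 and 1.52 CPM), at least 25.9-fold more than in culture (adjusted p = 9.73e-05). The libraries KFs replicates 1 to 3 held 32, 32 and 0 counts, and their comparison with KFc passed the test (adjusted p = 0.0201; 0.000618 without KFs replicate 3) but not when KFc replicate 2 or 3 or KFs replicate 1 or 2 was left out (adjusted p between 0.0518 and 0.0746), nor with voom and group weights (adjusted p = 0.325). Even so, HFs remained 2053-fold below TFs (adjusted p = 6.63e-08).

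Fibronectin and SPARC passed the thresholds in no organ. Fn1, the adhesive fibril protein that most cells bind through integrin alpha-5 beta-1, was at 21365, 22288 and 23004 CPM in HFc and at 36215, 35241 and 23305 CPM in HFs. The kidney values were 7213, 7236 and 6863 CPM in KFc and 8739, 8526 and 10417 CPM in KFs, and those of tail 17520.0, 17667 and 17911 CPM in TFc and 10653, 12522 and 13826 CPM in TFs. The transplanted libraries lay above the cultured ones in heart and kidney and below them in tail, without overlap. All 3 changes stayed inside a log2 fold change of 1: 0.51 ± 0.16 in heart (adjusted p = 0.0141), 0.38 ± 0.16 in kidney (adjusted p = 0.0649; 0.24 without KFs replicate 3) and -0.52 ± 0.16 in tail (adjusted p = 0.0188). The responses nonetheless differed, by 1.03 ± 0.23 on the log2 scale between heart and tail (adjusted p = 0.00475) and by 0.90 ± 0.23 between kidney and tail (adjusted p = 0.0193; 0.78 without KFs replicate 3, adjusted p = 0.0116), the latter ending without KFc replicate 3 or TFc replicate 2 or 3 (adjusted p between 0.0521 and 0.0562).

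Sparc, a collagen-binding protein needed for collagen fibrils to mature, was at 4589, 4734 and 4668 CPM in HFc, 3288, 3279 and 3147 CPM in KFc and 2676, 2682 and 2722 CPM in TFc. In the transplanted groups it was at 7491, 6919.8 and 5031 CPM in HFs, 5549, 4548 and 1577 CPM in KFs and 2950.1, 2869 and 2483 CPM in TFs. The heart libraries did not overlap, and the others did, in kidney through the library labelled KFs replicate 3. The log2 fold changes were 0.47 ± 0.29 in heart (adjusted p = 0.182), 0.27 ± 0.29 in kidney (adjusted p = 0.477) and 0.04 ± 0.29 in tail (adjusted p = 0.932). Without KFs replicate 3 the kidney value was 0.60 (adjusted p = 0.0011) and the heart value 0.49 (adjusted p = 0.00177), both still inside the limit of 1. That library enters the heart test only through the shared scaling and estimate of the spread. With all libraries no neighbours in the order of its 6 group means differed beyond their spread, although HFs was 2.34-fold higher than TFs (adjusted p = 0.00717).

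The 3 KFs libraries disagreed with each other in the same way for several of these genes. Postn, Thbs2 and Sparc were highest in replicate 1 and lowest in replicate 3, by 6.98, 5.94 and 3.52 times, whereas Spp1 was lowest in replicate 1 and highest in replicate 3, by 6.48 times. The summed fibroblast markers were at 99397, 76668 and 21176 CPM in replicates 1 to 3, against 17299 to 18379 CPM in KFc, and the summed myofibroblast markers at 2103, 2789 and 1214 CPM. Replicate 1, with the highest sum of fibroblast markers, was thus also the library with most Postn and Thbs2. HFs differed from this, as replicate 3 was lowest there for all 8 genes, including Spp1 and Fn1, which were highest in KFs replicate 3. Its fibroblast markers were at 79054 CPM, against 131822 and 124144 CPM in HFs replicates 1 and 2. The part of the makeup of the sorted cells in these spreads was not tested.

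**Figure D3:**
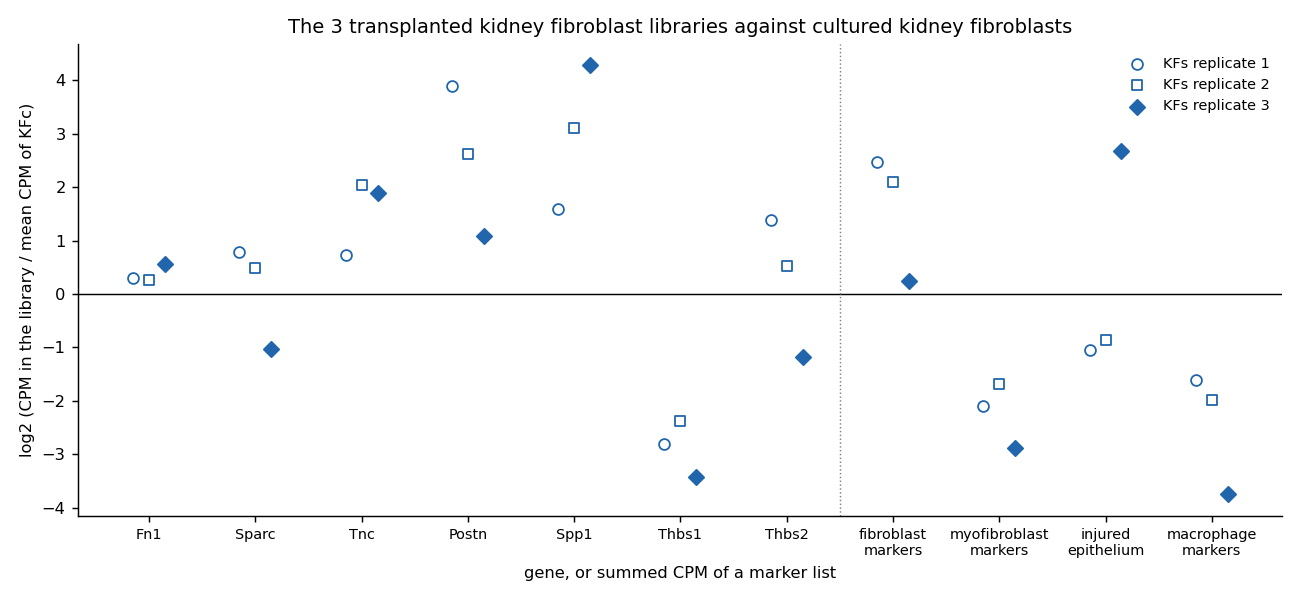
Level in each KFs library relative to the mean of KFc, as log2 of the ratio of CPM, for 7 of the genes (left of the dotted line; Thbs4 is left out because of its few counts) and for summed marker lists (right). The library labelled KFs replicate 3 (filled diamonds) lies below the other KFs libraries for Postn, Sparc, Thbs1, Thbs2 and the fibroblast markers and above them for Fn1, Spp1 and the markers of injured epithelium, which sum to 883 CPM there.

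In culture the organs differed in 5 of the 8 genes in each of the 3 pairs, at an adjusted p under 0.05 alone, beside 41.9% of all genes for HFc against TFc (20.9% higher and 21.0% lower), 36.4% for KFc against TFc (17.8% and 18.5%) and 29.2% for HFc against KFc (15.1% and 14.0%). The libraries did not overlap for 8, 6 and 7 of the 8 genes, beside 62.1%, 59.7% and 54.4% of all genes. Heart fibroblasts held more Postn (37.6-fold) and Sparc (1.73-fold) and less Spp1 (95.0-fold), Thbs1 (2.60-fold) and Thbs4 than tail fibroblasts. The call on Sparc was lost without any 1 library of either group (adjusted p between 0.0807 and 0.106). It was kept without KFs replicate 3 (adjusted p = 4.82e-05). Kidney fibroblasts held more Postn (15.0-fold) and Thbs2 (2.34-fold) and less Fn1 (2.49-fold), Spp1 (3.23-fold) and Thbs4 than tail fibroblasts. The call on Thbs2 was lost without any 1 library of either group (adjusted p between 0.0612 and 0.0833). It was kept without KFs replicate 3 (adjusted p = 0.000639). Between heart and kidney, heart held more Fn1 (3.13-fold) and Postn (2.51-fold) and less Spp1 (29.4-fold), Thbs1 (2.57-fold) and Thbs2 (3.74-fold). Thbs1 did not separate KFc from TFc (log2 -0.02 ± 0.23, adjusted p = 0.965), and Tnc passed the test in none of the 3 pairs, although its HFc libraries lay above those of KFc and TFc without overlap. When only the groups compared were fitted, Tnc did pass for HFc against TFc (log2 0.25, adjusted p = 7.82e-07) and for HFc against KFc (0.20, adjusted p = 1.55e-05). Without KFs replicate 3, which enters these pairs through the shared estimate of the spread, the counts were 6, 5 and 6. Calls over all genes then rose from 6943 to 8227, from 6026 to 7412 and from 4833 to 6136.

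After transplantation 5 of the 8 genes differed between HFs and TFs (23.1% of all genes; 10.3% higher and 12.7% lower), with Fn1 (2.56-fold) and Sparc (2.34-fold) higher in heart and Spp1, Thbs4 and Tnc lower. Between KFs and TFs 2 differed (29.1% of all genes; 15.3% higher and 13.8% lower), Thbs1, 1.62-fold higher in kidney (adjusted p = 0.0329), and Thbs4, lower in kidney. The Thbs1 call was lost without KFs replicate 1 or 2 or any 1 TFs library (adjusted p between 0.0516 and 0.185). It was also lost with only the groups compared in the fit (adjusted p = 0.185). Without KFs replicate 3 the difference was 1.90-fold (adjusted p = 0.00115). The count was then 5, since Postn (2.27-fold) and Sparc (1.83-fold) then counted as higher in kidney and Fn1 as lower. Calls over all genes in this pair rose from 4819 to 5944 in that fit. Between HFs and KFs 4 differed (33.2% of all genes; 14.2% higher and 19.0% lower), Fn1 (3.42-fold) and Thbs4 higher in heart and Spp1 and Tnc (2.95-fold) lower. With only the groups compared in the fit, Tnc no longer passed between HFs and KFs (adjusted p = 0.128). Without KFs replicate 3 the fold was 3.69 for Fn1, and Tnc was at log2 -1.41. That count was 7 without KFs replicate 3, since Sparc (1.29-fold) then counted as higher in heart and Thbs1 and Thbs2 as lower. Calls over all genes between HFs and KFs rose from 5504 to 6570 in that fit. In these 3 pairs the libraries did not overlap for 6, 3 and 3 of the 8 genes, beside 42.3%, 35.1% and 35.6% of all genes. The Thbs4 call between HFs and KFs rests on 40 to 83 counts against 0 to 32. It was lost without HFs replicate 1 or 2 (adjusted p of 0.105 and 0.0512) but not without KFs replicate 3 (adjusted p = 0.0134). With only the groups compared in the fit it was lost as well (adjusted p = 0.295). Postn, which separated all 3 pairs of cultures, did not pass the test in any of these pairs with all libraries, but without KFs replicate 3 it was higher in HFs and in KFs than in TFs (adjusted p of 0.00631 and 0.00293). Without KFs replicate 1 instead, Postn was at log2 -0.16 for KFs against TFs (adjusted p = 0.746). In that fit it was higher in HFs than in KFs (log2 1.12, adjusted p = 0.0146).

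The difference between organs in the response to transplantation was past the threshold for 6 of the 8 genes between heart and tail, beside 22.8% of all genes (10.1% higher in heart and 12.7% lower), for 3 between kidney and tail, beside 11.1% (4.99% and 6.07%), and for 2 between heart and kidney, beside 26.2% (10.7% and 15.5%). These counts were 7, 6 and 4 without KFs replicate 3. Calls over all genes rose as well without it, from 3776 to 5461, from 1835 to 3619 and from 4347 to 5962. Of the 8 genes, those added then were Sparc between heart and tail, and Sparc, Thbs1 and Thbs4 between kidney and tail. Between heart and kidney they were Postn and Spp1. These contrasts share the groups of each organ, so they do not bear on each other as separate evidence. The signs differed by gene: relative to tail, the heart response was higher for Fn1, Spp1, Thbs1 and Thbs4 and lower for Postn and Tnc, and the kidney response was higher for Fn1 and Spp1 and lower for Postn.

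Together the 8 genes took between 2.36% and 5.23% of all counts of a library. Fn1 and Thbs1 made up between 75.7% and 83.2% of their summed counts in culture. After transplantation this share was 76.4% to 77.9% in HFs, 46.9% to 47.7% in KFs and 43.5% to 51.4% in TFs. Reads of Fn1 per read of Thbs1 went from between 2.84 and 3.17 in HFc to between 12.4 and 17.6 in HFs, from between 0.367 and 0.375 in KFc to between 2.30 and 5.80 in KFs, and from between 0.902 and 0.913 in TFc to between 6.27 and 7.76 in TFs. Levels of different genes were compared per kilobase of exon. On that scale the mean level of Thbs1 led in KFc (3165 CPM per kb) and TFc (3208), Fn1 led in HFc (1901) and HFs (2703), Spp1 led in KFs (2683) and Thbs4 led in TFs (1873). The lead in KFs was uneven, with Spp1 at 777, 2243 and 5029 and Sparc at 1465, 1201 and 416 CPM per kb in replicates 1 to 3. Over replicates 1 and 2 alone the means were 1510 for Spp1 and 1333 for Sparc. Postn went from 1.30 CPM per kb in TFc, place 10557 of 16301 genes, to 90.5 in TFs, place 307.

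**Figure D4:**
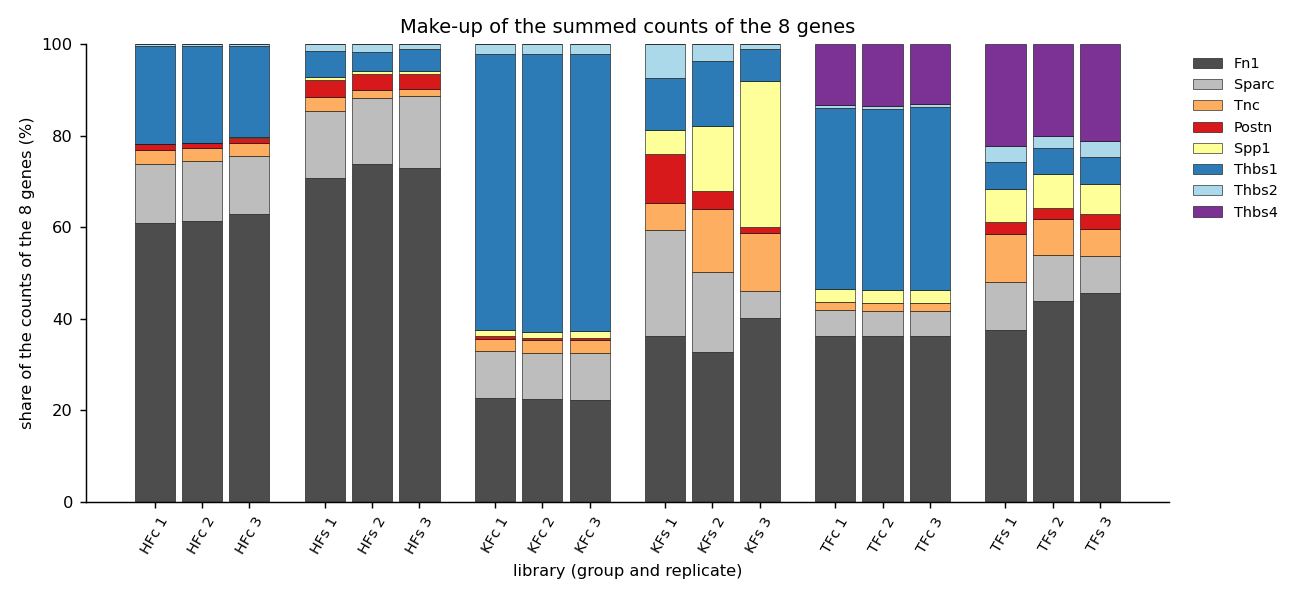
Share of each gene in the summed counts of the 8 genes, in percent of the sum, as stacked bars for each library by group and replicate. Thbs1 (blue) takes 60.3% to 60.9% in KFc and 6.91% to 14.2% in KFs, Thbs4 (purple) is visible in the tail libraries only, and Spp1 (yellow) reaches 31.9% in KFs replicate 3.

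For each gene the tested genes with the most similar profile, up to 3, were sought, as the root mean square difference of log2 levels over the 6 group means after centring each gene on its own mean, with all libraries included. For Postn these were Nrep (0.51), Cp (0.53), the copper carrier ceruloplasmin, and Gpr35 (0.54). For Thbs2 they were Mmp12 (0.19), the macrophage elastase, Npr1 (0.21) and Kif27 (0.23), and for Thbs1 Svop (0.28) and Dlx2 (0.32). For Spp1 they were Enpep (0.64), Sorcs2 (0.65) and Pdlim4 (0.75), and for Tnc Suv39h2 (0.15), the antisense gene AB041806 (0.17) and Polr3g (0.19). Fn1 was closest to St3gal4 (0.16), Lzts1 (0.20) and Unc5a (0.23), and Sparc to Prcp (0.09), the pseudogene 1700030C10Rik (0.14) and Ang (0.14). The genes nearest to Thbs4 were distant, Car3 (2.53), Cilp (2.71) and Hoxb13 (2.98). Among the 8 genes themselves the smallest difference was 0.54, between Fn1 and Sparc, and the largest distance to any nearest neighbour was that of Thbs4, 5.82 from Spp1.

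Other matricellular genes moved after transplantation as well. Of a list of 32, 25 could be tested, and 15 were higher and 5 lower in heart cells, 11 higher and 6 lower in kidney cells and 7 higher and 5 lower in tail cells. These are 80.0%, 68.0% and 48.0% of those tested, beside 27.7%, 22.6% and 16.5% of all genes. Without KFs replicate 3 the counts were 15 and 5, 12 and 6, and 10 and 5, of 28 that could then be tested. The median log2 fold change was 1.76 in heart, 0.95 in kidney and 0.31 in tail, with the heart value at 1.26 when Spock3, which had no count in HFc, was set to its lower bound. Tnn, tenascin N of periosteum and tendon, rose in every organ: from 0 to 6 counts to 127 to 222 counts in heart cells, from 0 to 4 counts to 42.0 ± 34.9 CPM (SD, n = 3; 53.3 and 69.9 CPM in KFs replicates 1 and 2) in kidney cells and from 0.594 to 1.40 CPM to 32.4 to 95.1 CPM in tail cells. Sparcl1, the closest relative of Sparc, rose in heart cells from 0.961 ± 0.458 to 27.97 ± 25.7 CPM (SD, n = 3; log2 4.90 ± 0.81, edgeR adjusted p = 0.00011). Mfap4, a microfibril protein, rose in kidney cells by 4.94 ± 0.89 on the log2 scale, to 67.0, 16.4 and 2.2 CPM in KFs replicates 1 to 3 (adjusted p = 0.000305; 5.44 without the third, adjusted p = 1.36e-06), and Tnfaip6, which crosslinks hyaluronan, in tail cells by 3.16 ± 0.43 (adjusted p = 4.35e-05). Ccn2, the connective tissue growth factor and a target of TGF-beta and of YAP, fell in heart cells from 2010 ± 33.2 to 269.6 ± 45.7 CPM (log2 -2.90 ± 0.25, adjusted p = 2.42e-07) and in tail cells from 507 ± 14.9 to 78.3 ± 32.4 CPM (-2.70 ± 0.25, adjusted p = 1.29e-06). Smoc1, a calcium-binding relative of Sparc, fell in heart cells by 2.38 on the log2 scale (adjusted p = 9.04e-06), and Smoc2 in tail cells by 2.69 (adjusted p = 4.82e-05). Ccn5 fell in kidney cells by 4.14 on the log2 scale, to between 2.60 and 12.4 CPM (adjusted p = 3.01e-07; -4.24 without KFs replicate 3), and Comp, the cartilage thrombospondin, by 3.47, to between 0.0401 and 0.256 CPM (adjusted p = 0.000228; -3.09 without KFs replicate 3).

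**Figure D5:**
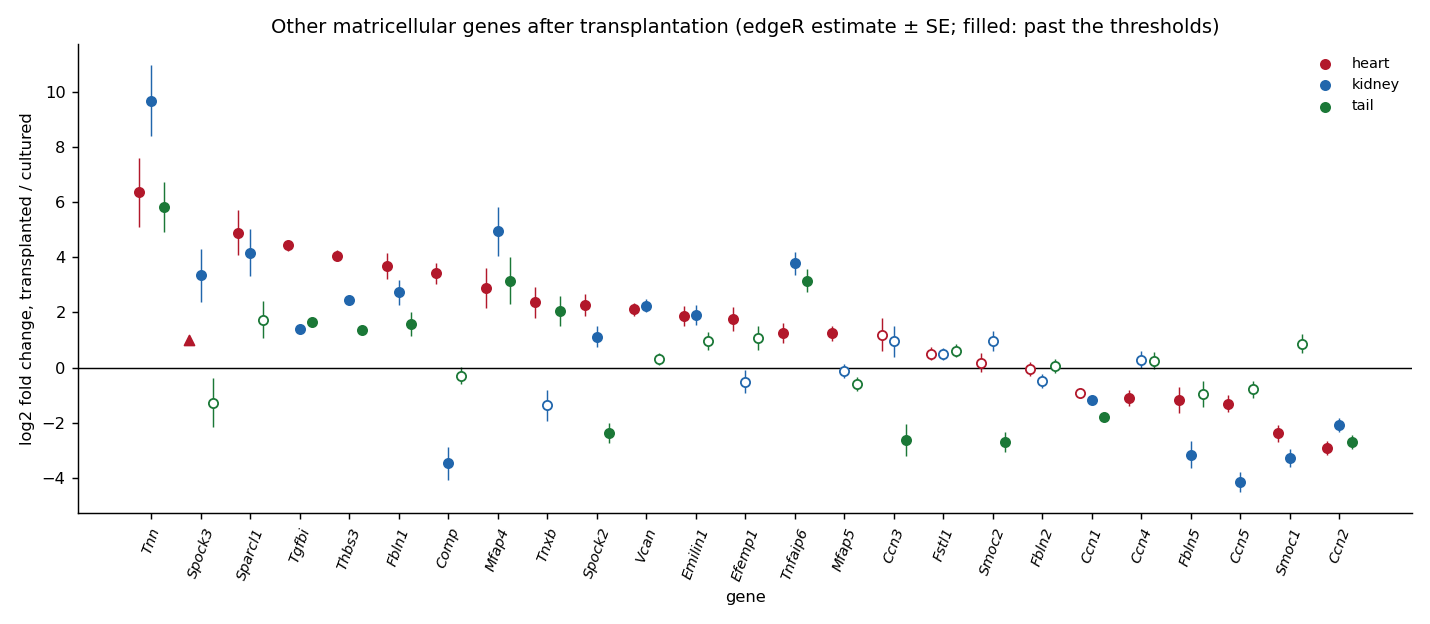
Log2 fold change in transplanted over cultured cells of the 25 other matricellular genes that could be tested, as the edgeR estimate ± SE, for heart (red), kidney (blue) and tail (green), in the order of the fitted heart values. Filled points passed the thresholds and the triangle is a lower bound for Spock3 in heart; Tnn is above 0 and Ccn2 below 0 in all 3 organs.

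Of the receptors of these proteins, Itgb3 and Itgb8 rose in all 3 organs. All 20 of a list could be tested, and 6 were higher and 1 lower in heart cells, 5 higher and 2 lower in kidney cells and 3 higher and 3 lower in tail cells, with medians of 0.34, 0.05 and 0.15. In all 7, 7 and 6 of the 20 passed, beside 27.7%, 22.6% and 16.5% of all genes. The counts were 6 and 2, 4 and 2, and 4 and 3 without KFs replicate 3. Itgb3, the beta chain of the vitronectin and osteopontin receptor, rose in kidney cells from 20.8 ± 1.28 to 58.1 ± 25.4 CPM (log2 1.48 ± 0.29, adjusted p = 0.000536; 1.07 without KFs replicate 3) and in tail cells from 5.99 ± 0.809 to 20.1 ± 7.93 CPM (1.74 ± 0.30, adjusted p = 0.000327). Itgb8, whose heterodimer with the alpha-v chain activates TGF-beta, rose in kidney cells by 1.90 ± 0.21 on the log2 scale (adjusted p = 3.52e-06; 1.71 without KFs replicate 3). In heart cells Cd36, a receptor of thrombospondins and fatty acids, rose from 0.364 ± 0.201 to 8.95 ± 6.82 CPM and the syndecan Sdc1 from 72.5 ± 1.11 to 281 ± 17.7 CPM, while Itga4 fell by 2.04 on the log2 scale (adjusted p = 9.92e-09). Itga8 fell in kidney cells by 3.64 on the log2 scale (adjusted p = 1.65e-05; -3.23 without KFs replicate 3) and Itgb5 by 1.03 (adjusted p = 8.66e-05). Without that library Itgb5 was at -0.96, inside the limit of 1, and Itga3 passed as lower (log2 -3.77, adjusted p = 3.44e-09). In tail cells Itga3 fell by 2.59 (adjusted p = 0.0172) and Itga8 by 1.43 (adjusted p = 0.0259), and Itgax, at 0 or 1 count in TFc, was at least 4.20-fold higher in TFs.

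Of 12 proteases that cleave or process these proteins 10 could be tested, and Adamts1 in heart cells was the only call in the lower direction with all libraries. In heart cells 7 were higher and 1 lower, in kidney cells 6 were higher and in tail cells 5 were higher, with median log2 fold changes of 1.67, 1.42 and 1.14. In all 8, 6 and 5 of the 10 passed, beside 27.7%, 22.6% and 16.5% of all genes. The kidney counts were 7 higher and 1 lower without KFs replicate 3, since Mmp14 then counted as higher (log2 1.25) and Adamts1 as lower (log2 -1.53, adjusted p = 1.16e-05, against -0.30 with it). Mmp3, stromelysin 1, rose in tail cells from 11.2 ± 1.48 to 3911 ± 1242 CPM (log2 8.45 ± 1.10, adjusted p = 2.79e-05) and in heart cells from 10.3 ± 2.10 to 753 ± 432 CPM (6.20 ± 1.00, adjusted p = 8.43e-05). Mmp13, a collagenase, rose in tail cells from 1.80 ± 0.579 to 462 ± 70.9 CPM (adjusted p = 3.08e-07). Mmp9, a gelatinase, was at 0, 0 and 6 counts in HFc and at 53.8, 34.3 and 36 CPM in HFs, and it rose in kidney cells from 3.56 ± 1.42 to 34.6 ± 16.9 CPM (log2 3.29, adjusted p = 1.02e-05; 3.47 without KFs replicate 3). Adamts4, an aggrecanase, rose in kidney cells from 27.3 ± 3.19 to 144 ± 62.2 CPM (log2 2.40, adjusted p = 1.15e-05; 2.66 without KFs replicate 3), and Adamts1 fell in heart cells by 1.39 on the log2 scale (adjusted p = 0.0146).

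Genes of the TGF-beta axis were called in both directions in heart cells and as lower in kidney and tail cells. Of 17 genes, all tested, 5 were higher and 3 lower in heart cells, 0 higher and 5 lower in kidney cells and 0 higher and 4 lower in tail cells, with medians of 0.19, -0.20 and -0.29. These were 47.1%, 29.4% and 23.5% of the list, beside 27.7%, 22.6% and 16.5% of all genes (18.3%, 14.7% and 11.0% higher and 9.33%, 7.99% and 5.53% lower). Without KFs replicate 3 the heart counts were 5 higher and 2 lower and the kidney counts 1 higher and 3 lower, the 1 being Tgfbr3 (log2 1.09). The feedback inhibitor Smad7 fell in kidney cells by 1.42 on the log2 scale (adjusted p = 7.73e-06; -1.66 without KFs replicate 3) and in tail cells by 1.85 (adjusted p = 1.24e-06). The ligand Tgfb3 fell in the same organs by 1.45 (adjusted p = 0.00076; -1.21 without KFs replicate 3) and 1.87 (adjusted p = 0.000154), and Tgfb2 in heart cells by 1.77 (adjusted p = 7.87e-08). Higher in heart cells were Ltbp2, which anchors to fibrillin microfibrils, from 41.5 ± 3.99 to 631 ± 298 CPM (adjusted p = 1.08e-07), and the co-receptor Tgfbr3, from 18.1 ± 3.00 to 98.4 ± 29.0 CPM (adjusted p = 1.31e-05). All 5 contractile genes that mark myofibroblasts fell in all 3 organs, with and without KFs replicate 3. Acta2, smooth muscle actin, fell in kidney cells from 4789 ± 73.0 to 1055 ± 382 CPM (log2 -2.18, adjusted p = 8.33e-05; -1.98 without KFs replicate 3), and Cnn1, calponin, in tail cells from 99.1 ± 5.54 to 3.13 ± 0.447 CPM (adjusted p = 4.58e-07). Fibroblast markers went the other way, with 7, 6 and 5 of 10 higher in heart, kidney and tail cells and 2, 0 and 1 lower; without KFs replicate 3 the kidney count was 7 higher.

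Markers of kidney tubule cells also moved with transplantation. Over all genes, 18.3% were called higher in heart cells, 14.7% in kidney cells and 11.0% in tail cells. Of the 12 proximal tubule markers 12 passed the thresholds as higher in heart cells, 10 in kidney cells (9 without KFs replicate 3) and 12 in tail cells. All 12 were above 3 counts in every transplanted library, and their sum was 122 to 1177 CPM in HFs against 22.6 to 25.0 CPM in HFc, 61.8 to 126 CPM in KFs against 103 to 111 CPM in KFc, and 139 to 329.5 CPM in TFs against 19.7 to 21.8 CPM in TFc. In HFc, Kap, Slc34a1, Slc5a12, Slc27a2, Slc22a6 and Pck1 were at 0 in every library. The 8 distal nephron markers summed to 13.5 to 92.7 CPM in transplanted libraries and to 0.432 CPM or less in culture, where Umod and Kcnj1 were at 0 in all 9 libraries. Endothelial markers summed to 83.4 to 131 CPM against 51.5 to 79.0 CPM, with 10 of 10 above 3 counts in each transplanted group, and neutrophil markers to 15.3 to 20.5 CPM against 5.90 to 11.8 CPM, with S100a8 and S100a9 at 0 in culture. Mesothelial markers summed to 51.8 to 66.5 CPM in KFs against 29.3 to 31.9 CPM in KFc and to 5.35 to 9.34 CPM in HFs against 115 CPM in HFc. Macrophage markers summed to 110.4 to 182 CPM in HFs against 115 to 133 CPM in HFc and to 45.2 to 54.4 CPM in TFs against 199.9 to 227.6 CPM in TFc. The part of these cells in the levels of the 8 genes was not tested.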

How the data were processed

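RNA-seq of 18 libraries (stranded total RNA, single-end) was used. The authors aligned reads to GRCm38 with Bowtie2 and deposited RSEM expected counts per Ensembl gene, here whole numbers, per the study's methods. The submitters' processing notes instead name mm9, Bowtie and RSEM, and the annotation release is not given in the sources used here, so counts carry no coordinates of their own. GENCODE M21 gave symbols, positions and exon lengths for 37607 of 38924 genes, and the other 1317 held 0.277% of all counts. Counts were scaled by TMM, filtered by filterByExpr and fitted over all 18 libraries with 1 mean per group in edgeR 4.0.16 (R 4.3.3; quasi-likelihood test, Benjamini-Hochberg over 16577 genes). Calls need an adjusted p under 0.05 and, for transplantation, a log2 fold change beyond 1. The fit was tested on simulated HFs and HFc data (16184 genes), where it found 184 of 200 changed genes with 4 false calls. The simulation gave each gene the same spread in every group and changed only those 200 genes. It therefore cannot show the error rate under the unequal spreads of the real groups. Named genes were all 8 members, up to 2 rises and 2 falls per list and transplant comparison among calls without overlap, 3 nearest profiles per member, label-check genes and markers at 0; some genes that this rule names are not reported here. The members and lists were chosen with earlier results of these data known. Alternatives were DESeq2 1.42.0, its size factors, library size only, 2 filters, the groups compared alone, a replicate block, voom with group weights (limma 3.58.1) and leaving out each library; the last tool, and the values of the lists, spans and levels per kilobase without KFs replicate 3, with the genes named for a changed call there, were chosen after seeing the data.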

Additional observations from a re-analysis of the deposited data

Results flagged for a closer look

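For 6 of the 8 genes the response to transplantation differed between organs by edgeR's interaction test with Benjamini-Hochberg adjustment. Values are differences of log2 fold changes. Heart minus tail was 1.03 for Fn1 (adjusted p = 0.00475), -4.27 for Postn (adjusted p = 0.000252), 3.74 for Spp1 (adjusted p = 0.000371), 1.71 for Thbs1 (adjusted p = 0.00174) and -1.60 for Tnc (adjusted p = 0.0322). For Thbs4 it was 9.33 (adjusted p = 0.00112), a fitted value that depends on the prior count because HFc held no count. Kidney minus tail was 0.90 for Fn1 (adjusted p = 0.0193), -3.17 for Postn (adjusted p = 0.00453) and 2.79 for Spp1 (adjusted p = 0.00544). Heart minus kidney was 1.00 for Thbs1 (adjusted p = 0.0339) and -1.81 for Tnc (adjusted p = 0.0153). Without KFs replicate 3, each of these differences that involve kidney cells passed the test again. With only the groups compared in the fit, heart minus kidney passed neither for Thbs1 (adjusted p = 0.0774) nor for Tnc (adjusted p = 0.0522).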

How the results depend on the processing

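Apart from Thbs4 in kidney cells, every call of the 8 genes after transplantation kept its direction and its side of the thresholds under every alternative run. No value that passed a test changed sign. Of the other settings, 721 values of single genes and comparisons kept their direction and their side of the threshold, 25 passed it newly, 12 no longer did and 8 changed sign; when 1 library was left out, these were 688, 21, 52 and 15. The cause of these changes and of those in the counts below was not tested. With only the groups compared in the fit, the number of the 8 genes that passed was 8 for HFc against TFc, 1 for KFs against TFs, 2 for HFs against KFs and 0 for heart minus kidney, and all genes that passed numbered 7508 for HFc against KFc, 1137 for KFs against TFs and 883 for HFs against KFs. With voom they were 1 for KFs against TFs and 4 for heart minus kidney, and over all genes 9058 for KFc against TFc, 7997 for HFc against KFc, 2387 for KFs against TFs, 2455 for HFs against KFs and 5672 for heart minus tail. DESeq2 called 4 of the 8 genes between KFs and TFs. Leaving out 1 library gave 1 to 5 of the 8 genes for KFs against TFs, 3 to 7 for HFs against KFs, 2 to 6 for kidney minus tail and 1 to 4 for heart minus kidney, and 3183 to 5944 genes in all for KFs against TFs and 1198 to 3619 for kidney minus tail. The upper end of each range came without KFs replicate 3. With library size only, the median log2 difference of all genes was -0.25 for HFs against TFs and -0.25 for HFs against KFs. With TMM scaling these medians were -0.03 and -0.04. The share of calls that were higher went from 44.8% to 19.6% and from 42.8% to 23.0% in these pairs.

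Whether the replicate numbers pair the libraries cannot be decided from 3 libraries per group. Same-numbered residuals correlated between -0.139 and 0.0792. Of the 6 libraries in each comparison, 6 correlated best with their own number in HFc against KFc and 4 in KFs against KFc. None did so in TFs against TFc, KFc against TFc or HFs against KFs, and the remaining comparisons lay between. With the replicate block the number of the 8 genes that passed after transplantation was 5 in heart, 5 in kidney and 4 in tail. Sparc between HFs and KFs was the only one of the 8 genes whose side of the threshold changed under the block (log2 0.79, adjusted p = 0.0431).

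The changes of sign were in 14 differences, none of which passed the test in either fit. For Thbs1 between KFc and TFc the log2 difference was 0.028 with DESeq2 and with its size factors, 0.0031 with a mean of at least 10 counts, 0.010 without a filter and 0.014 with only the groups compared. For Tnc in that pair it was -0.038 with library size only, and for Thbs2 between KFs and TFs it was -0.014 with the replicate block and -0.21 with voom. Leaving out 1 library gave -0.66 to 0.23 for Tnc in heart, -0.092 to 0.98 for Thbs2 in kidney, and for Sparc -0.080 to 0.60 in kidney and -0.011 to 0.11 in tail. The ranges were -0.039 to 0.022 for Thbs1 between KFc and TFc and, between KFs and TFs, -0.16 to 1.19 for Postn, -0.0016 to 0.55 for Tnc and -0.55 to 0.56 for Thbs2. Between HFs and KFs they were -0.21 to 1.12 for Postn and -1.01 to 0.086 for Thbs2. For kidney minus tail they were -0.053 to 0.53 for Tnc and -0.12 to 0.58 for Sparc, and for heart minus kidney -0.11 to 0.55 for Sparc.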
